A study of Mus musculus with 8 samples.

Results

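miR-132 and miR-212 are a pair of microRNAs made from neighbouring hairpins of 1 mouse locus. Their 2 assays were taken by name, mmu-miR-132 and mmu-miR-212, from the 750 distinct miRNA assays of a real-time PCR profile of CD34+/CD105- cells. No assay of their partner strands, and no rat or human version, was found by name (0 other assays). CD34 marks endothelial cells and progenitors, while CD105, or endoglin, is carried by endothelium and by stromal cells. The cells were sorted from the renal artery of 4 mice with renal ischemia/reperfusion injury, in which both renal arteries had been clamped, and of 4 mice with sham surgery. The sources used here do not give the strain, genotype, age, clamping time or reperfusion time of the mice, or whether tissue was pooled. Each numbered mouse was treated as a separate replicate. The miRNA assays give no value for CD34 or CD105. The endothelial miR-126-3p and the myeloid miR-223 (mmu assay) were both detected in 8 of 8 samples.

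Both miRNAs come from a non-coding transcript that the transcription factor CREB is known to induce, in neurons after synaptic activity and growth factors and in other cells after a range of stimuli. In endothelial cells miR-132 is known to repress Rasa1, which encodes the Ras inhibitor p120RasGAP, and so to favour angiogenic growth. In the heart the pair is known to repress Foxo3 and to promote hypertrophy of cardiomyocytes. MicroRNAs bind their targets mainly through bases 2 to 8 from the 5′ end, the seed.

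The mature 3p strands are shown first because older assay names without an arm denote that strand for both miRNAs. The sequences are from RefSeq on GRCm38.p6, matched by name for 2 of 2 assays, and the seed is in capitals. The sources used here do not give the sequence that each assay's probe detects.
mmu-miR-212-3p: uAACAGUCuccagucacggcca
mmu-miR-132-3p: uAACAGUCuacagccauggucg
Both strands are 22 bases long and carry the same seed, AACAGUC. Of the 1738 mature mouse miRNA entries in the RefSeq table, only these 2 names have it. The first 9 bases are identical, and 17 of 22 bases are identical without gaps. Counted from the 5′ end, with the base of miR-212-3p first and that of miR-132-3p last, the differences are C10A, U14C, C17U, C20U and A22G.

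The hairpins are printed in the same order to show that each mature strand, in capitals, lies in the 3′ arm of its own precursor.
Mir212: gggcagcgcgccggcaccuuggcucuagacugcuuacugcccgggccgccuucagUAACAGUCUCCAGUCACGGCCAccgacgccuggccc
Mir132: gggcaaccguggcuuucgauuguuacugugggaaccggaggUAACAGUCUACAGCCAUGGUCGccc
Mir212 lies at chr11:75173388-75173478 and Mir132 at chr11:75173682-75173747, both on the plus strand of GRCm38.p6. The gap between them is 203 bases. The assays lie on different cards by their catalogue numbers, miR-132 on the first and miR-212 on the second.

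The readout is the threshold cycle (Ct), the PCR cycle at which a product becomes measurable, and it is lower where more RNA is present. An assay was taken as detected below Ct 35. miR-212 was detected in 3 of 4 ischemia/reperfusion mice and in 0 of 4 sham mice, while miR-132 was detected in 0 of 4 ischemia/reperfusion mice and in 1 of 4 sham mice. No sample held both. The pair was chosen by measured values, namely the detection of miR-212 after ischemia/reperfusion in these same samples. Detection and levels of both are therefore given as a description, with no test.

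miR-212 had Ct 31.0 in ischemia/reperfusion mouse 1, 31.0 in mouse 2 and 30.0 in mouse 4, and no Ct in ischemia/reperfusion mouse 3. In sham mice, miR-212 had Ct 35.4 in mouse 4, just over the limit, and no Ct in mice 1, 2 and 3. The detected ischemia/reperfusion wells were thus close together, with a mean Ct of 30.6 ± 0.585 (SD, n = 3), between 4.00 and 5.03 cycles below the limit. All 3 lay below the only sham Ct. Ischemia/reperfusion mouse 3 had no Ct, like 3 of the sham mice, so the groups of 4 overlapped.

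miR-132 gave a Ct in a single well of the 8. Its Ct was undetermined in ischemia/reperfusion mice 1 to 4. In sham mice it was 31.1 in mouse 4 and undetermined in mice 1, 2 and 3. That well lay 3.87 cycles below the limit, about as early as the miR-212 wells of the ischemia/reperfusion mice.

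**Figure D1:**
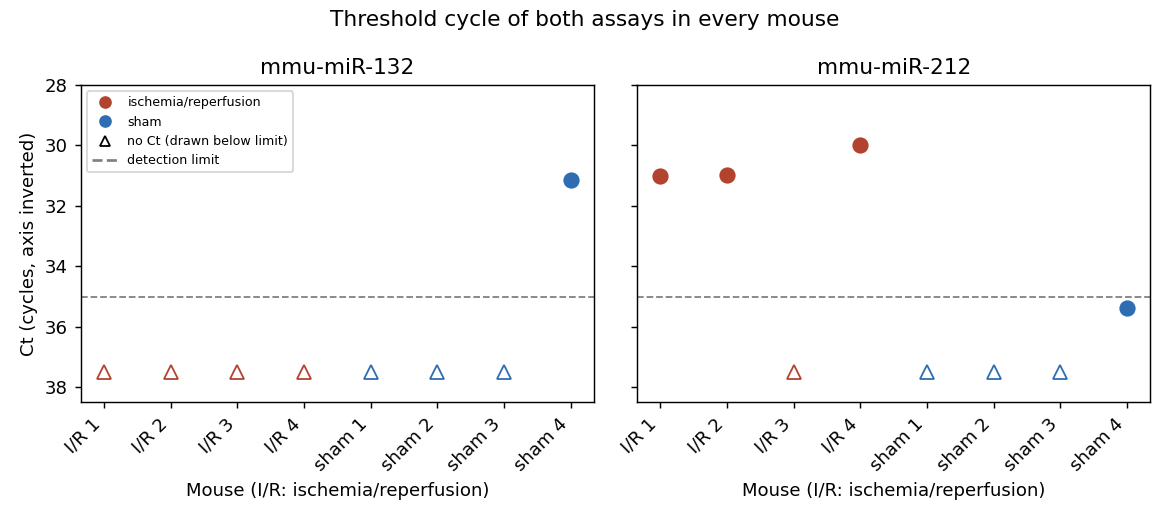
Ct in cycles (vertical axis, inverted so that more RNA is higher) of miR-132 (left) and miR-212 (right) in each mouse, ischemia/reperfusion mice in red and sham mice in blue. Filled points are wells with a Ct, open triangles are wells without one drawn at an arbitrary height, and the dashed line is the limit of Ct 35. miR-212 lies between Ct 30.0 and 31.0 in 3 ischemia/reperfusion mice, and miR-132 has 1 point, at Ct 31.1 in sham mouse 4.

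The detection of miR-212 went against that of most assays whose detection differed between the groups. Of the 750 miRNA assays, 107 (14.3%) were detected in more sham than ischemia/reperfusion mice and 15 (2.00%) in more ischemia/reperfusion than sham mice. Detection in at least 3 ischemia/reperfusion mice and at most 1 sham mouse was seen for 2 assays (0.267%), miR-212 and miR-101a (named after its values were seen). miR-101a had Ct 30.7 in ischemia/reperfusion mouse 1, 31.3 in mouse 3 and 31.997 in mouse 4, and Ct 29.0 in sham mouse 4 and 36.4 in sham mouse 3. With 0 sham mice in place of at most 1, only miR-212 remained (1 assay, 0.133%). The reverse pattern, at least 3 sham mice and at most 1 ischemia/reperfusion mouse, was seen for 25 assays (3.33%). These shares place the pattern for which miR-212 was chosen among all assays and are no test of it.

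miR-132 shared its pattern with many assays. Detection in 1 sham mouse and 0 ischemia/reperfusion mice was seen for 28 assays (3.73%), and 21 assays (2.80%) were detected in sham mouse 4 only. Sham mouse 4 had the most detected miRNA assays of all samples. The numbers were 98, 82, 91 and 88 in ischemia/reperfusion mice 1 to 4, against 127, 75, 142 and 163 in sham mice 1 to 4. In the other 7 samples, between 0 and 5 assays were detected in that sample alone. The part of this difference in detected assays in the single miR-132 value was not tested. On the second card, which holds miR-212, the numbers were 34, 24, 31 and 32 in ischemia/reperfusion mice 1 to 4. In sham mice 1 to 4 they were 39, 29, 41 and 44. The part of these numbers in the miR-212 pattern was not tested either.

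**Figure D2:**
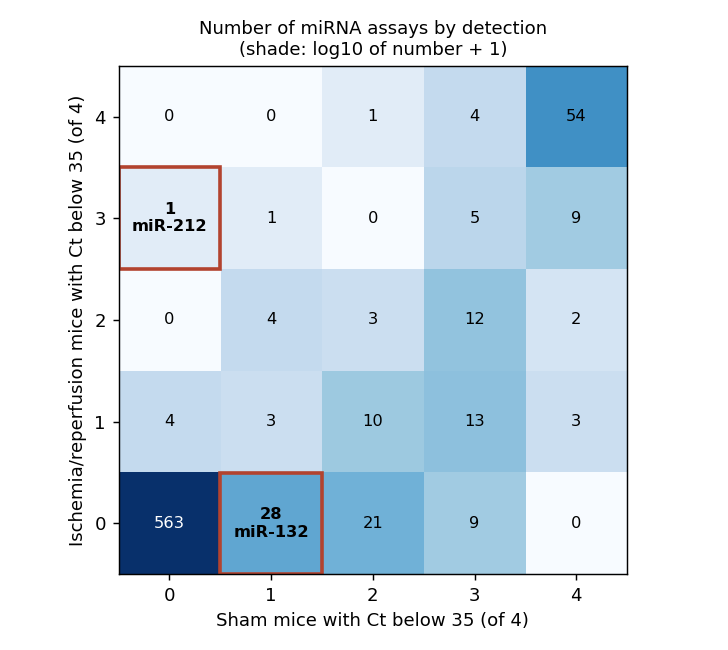
Number of the 750 miRNA assays for each pair of detection counts, with ischemia/reperfusion mice on the vertical axis and sham mice on the horizontal axis (mice of 4 with Ct below 35). Shade is log10 of the number plus 1, and red frames mark the cells that hold miR-212 (1 assay) and miR-132 (28 assays). Most assays off the diagonal lie on the side of more sham mice.

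Levels were set against the authors' reference, which is 1 value per sample and card. The deposited delta Ct is the Ct minus that reference, and minus delta Ct is used here, on which 1 unit is a doubling of RNA if the PCR is fully efficient. For miR-212, minus delta Ct was -9.53, -8.34 and -8.07 in ischemia/reperfusion mice 1, 2 and 4. In sham mouse 4 the late well gave -16.55. The mean of the 3 detected ischemia/reperfusion delta Ct values was 8.65 ± 0.78 (SD, n = 3).

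The reference also sets the lowest level each sample could show. On the second card the reference Ct was 21.9 ± 0.520 in ischemia/reperfusion mice and 20.9 ± 1.79 in sham mice (SD, n = 4 each). A well at Ct 35 had a minus delta Ct for miR-212 of -13.39 in ischemia/reperfusion mouse 3. In sham mice 1 to 4 that limit was -13.54, -11.97, -14.79 and -16.18. Even the lowest detected ischemia/reperfusion level, -9.53, lay 2.44 log2 units above the highest of these sham limits, that of mouse 2. At that level, miR-212 would have appeared at Ct 31.1 in ischemia/reperfusion mouse 3, and at Ct 31.0, 32.6, 29.7 and 28.3 in sham mice 1 to 4. Amounts of miR-212 like those of ischemia/reperfusion mice 1, 2 and 4 were therefore within reach of detection in every sample. This holds as far as a missing Ct means a low level and not a failed well, which was not tested.

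Missing wells beside detected ones were counted in each group, without regard to the mouse they fell in, and they were frequent in the sham group. Of 16 assays detected in 3 of 4 ischemia/reperfusion mice, 7 had no Ct in the remaining mouse and 9 a Ct of at least 35 there. Among the 4 of these with a mean Ct no higher than that of miR-212, itself included, 1 had no Ct in the remaining mouse, and that 1 is miR-212. In sham mice, 43 assays were detected in 3 of 4, of which 29 had a mean Ct that low, and 22 of the 29 had no Ct in the remaining mouse.

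For miR-132, the level in sham mouse 4 was a minus delta Ct of -13.19. At that level it would have appeared at Ct 34.2, 35.6, 33.7 and 34.9 in ischemia/reperfusion mice 1 to 4, and at Ct 33.8, 35.6 and 32.2 in sham mice 1 to 3. It would thus have passed the limit narrowly in 3 ischemia/reperfusion mice and not at all in ischemia/reperfusion mouse 2 and sham mouse 2. The limit of Ct 35 lay at or below a minus delta Ct of -12.56 in every sample, the value of sham mouse 2, so a miR-132 level above it was within reach in all 8 mice. Differences among lower levels were not detectable in every sample. Sham mouse 4 had the lowest first-card reference, Ct 17.9, so it could show lower levels than any other sample.

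**Figure D3:**
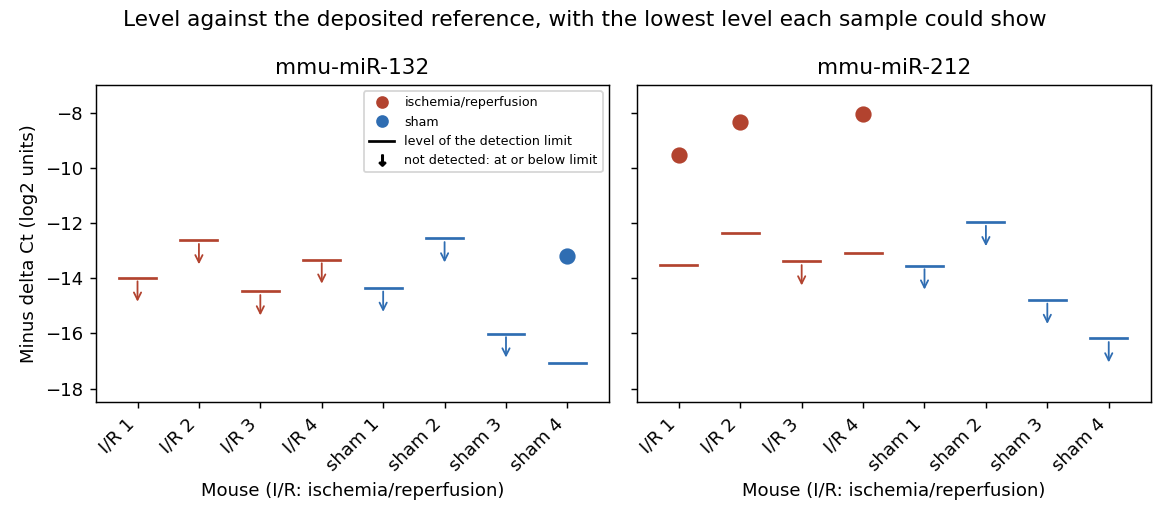
Minus delta Ct (log2 units, higher means more RNA) of miR-132 (left) and miR-212 (right) in each mouse, ischemia/reperfusion mice in red and sham mice in blue. Points are detected levels, short lines the level of a well at Ct 35 in that sample, and arrows mark samples in which the assay was not detected. The miR-212 points, from -9.53 to -8.07, lie above every short line, and the miR-132 point at -13.19 lies below the lines of ischemia/reperfusion mouse 2 and sham mouse 2.

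With every value not detected set to Ct 35, miR-212 averaged a minus delta Ct of -9.83 ± 2.46 in ischemia/reperfusion mice and -14.12 ± 1.79 in sham mice (SD, n = 4 each). The log2 difference was 4.29 ± 1.52 (SE). All 4 sham values are set ones, so their spread is that of the reference alone, and the size of the difference rests on the limit. With Ct 40 in those wells it was 8.04 ± 2.62. Without normalization it was 3.26 ± 1.11, and without any 1 mouse it lay between 3.60 (without sham mouse 4) and 5.47 (without ischemia/reperfusion mouse 3).

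For miR-132 the same step gave -13.60 ± 0.80 in ischemia/reperfusion mice and -14.03 ± 1.51 in sham mice (SD, n = 4 each), a log2 difference of 0.42 ± 0.86 (SE). This difference was smaller than its error and its sign carries no information, since 7 of the 8 values are set by the limit and the reference. It turned to -0.97 without normalization, to -0.83 with Ct 40 in the wells not detected and to -0.24 without sham mouse 3. The within-sample difference, miR-212 minus miR-132, was 3.77 ± 1.84 in ischemia/reperfusion mice and -0.09 ± 1.95 in sham mice (SD, n = 4 each). Its group difference of 3.87 ± 1.34 (SE) rests on the same set values, and no sample had both assays detected.

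For miR-212 the authors' deposited table lists a fold of 239.8, and for miR-132 it lists none. Only 5 of the 150 folds in the authors' deposited table are larger. That fold, 7.91 on the log2 scale, compares 3 ischemia/reperfusion wells with 1 sham well, the late one at Ct 35.4. It has no spread on the sham side, and it leaves out the 4 wells without a Ct. This fold and the difference with values set at the limit use the same 3 ischemia/reperfusion wells, for which miR-212 was chosen. Their shared direction is therefore no support. In size they differ by 3.62 log2 units.

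Across the whole table, 72 miRNAs were detected in at least 3 mice of each group and were tested with limma. Neither member was among them, and 0 of the 72 (0.00%) passed a Benjamini-Hochberg adjusted p of 0.05. By limma, 10 miRNAs had an unadjusted p under 0.05, all lower after ischemia/reperfusion (13.9%), and by an exact permutation test per miRNA 2 did. The permutation test could not give a p under 0.05 to a miRNA detected in only 3 mice of each group, as some of the 10 were. The limma count was 5 without sham mouse 3, 5 without sham mouse 4 and 21 without normalization, all lower, and 8, of which 6 were lower, against the mean of the 54 assays detected in all 8 samples. The median log2 difference of the 72 was -0.80.

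Within the detected assays of its card, miR-212 was of middle to low abundance by Ct. In ischemia/reperfusion mouse 1, 18 of 34 detected second-card assays had a lower Ct (52.9%). In mouse 2 it was 18 of 24 (75.0%) and in mouse 4 it was 17 of 32 (53.1%). miR-132 in sham mouse 4 stood lower, with 93 of 119 detected first-card assays ahead of it (78.2%). Assays differ in PCR efficiency, so these places describe Ct and not amounts of RNA.

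**Figure D4:**
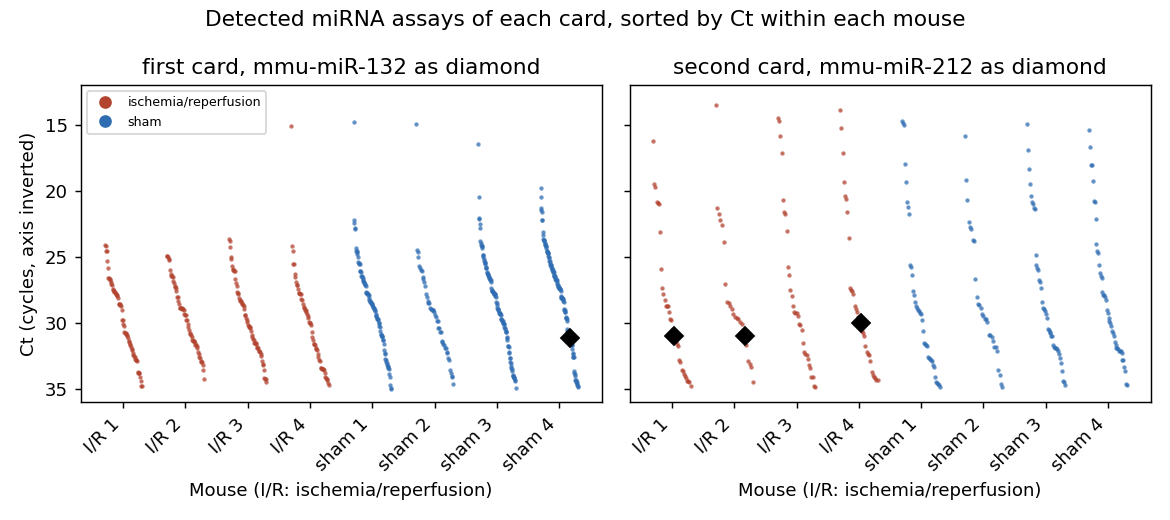
Ct in cycles (vertical axis, inverted) of every detected miRNA assay of the first card (left) and the second card (right), sorted within each mouse, ischemia/reperfusion mice in red and sham mice in blue. Diamonds mark miR-132 and miR-212. miR-212 lies in the middle or lower part of 3 ischemia/reperfusion mice, and miR-132 in the lower part of sham mouse 4.

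Assays most like the members were looked up by their detection in the 8 samples, since neither member was detected in enough samples for a correlation. For miR-132, 20 assays matched in 8 of 8 samples, all detected in sham mouse 4 only. The first 5 by name were miR-125b-3p (Ct 34.6), miR-134 (Ct 31.995), miR-136 (Ct 34.3), miR-17 (Ct 25.9) and miR-192 (Ct 29.8). For miR-212, no assay matched in 7 or 8 samples. The best, with 6 of 8, were miR-148a, miR-30b# and miR-350. miR-30b# and miR-350 were detected in ischemia/reperfusion mouse 1 only, at Ct 34.3 and 32.4, and miR-148a in ischemia/reperfusion mice 2 and 4 and in sham mouse 1. Agreement in samples without detection makes up most of these matches.

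Other miRNAs of the chromosomal neighbourhood are given for context. Within 5 Mb of Mir132 on chromosome 11, 11 assays for 8 miRNA genes were found, of which 4 were detected in any sample. Detection in more ischemia/reperfusion than sham mice was seen for 0 of 11, beside 2.00% of all assays, and in more sham mice for 2 of 11, beside 14.3%. With so few assays, these counts are near the shares over all assays. Both strands of miR-22, from the closest gene with an assay at 290 kb, had no Ct. miR-423-5p was detected in sham mouse 4 only, at Ct 31.1. miR-365, which a second locus can also give rise to, was detected in 0 of 4 ischemia/reperfusion mice, with Ct from 36.6 to 39.2, and in 3 of 4 sham mice, with Ct from 30.1 to 32.8. miR-195 and miR-497, encoded together, were detected in all samples, with log2 differences of -1.24 ± 0.97 and 0.35 ± 1.35 (SE, n = 4 each; limma adjusted p = 0.552 and 0.854).

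miRNAs linked to neuronal activity, through CREB or the factor MEF2, were described as a list of 9 names with 10 assays. Of these, 6 of 10 were detected in any sample, beside 187 of all 750 assays. In more ischemia/reperfusion than sham mice, 0 of 10 were detected, near the 2.00% of all assays, and 4 of 10 were detected in more sham mice, beside 14.3%. Among assays detected in any sample, that is 4 of 6, beside 107 of 187 (57.2%), so the list is not set apart. Between 1 and 2 were detected per ischemia/reperfusion mouse, against 1 to 4 per sham mouse. miR-134, which acts on dendritic spines in neurons, was detected in sham mouse 4 only. miR-379 was detected in 1 of 4 ischemia/reperfusion mice, at Ct 34.3, and in 3 of 4 sham mice, at Ct 30.6, 29.1 and 27.4. The mmu-miR-381 assay was detected in ischemia/reperfusion mouse 1, at Ct 31.0, and in sham mouse 3, at Ct 33.9. Only miR-188-5p could be tested, with a log2 difference of 0.73 ± 0.90 (SE, n = 4 each; limma adjusted p = 0.626). Thus 0 of 1 tested members passed in either direction.

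Neurons are rich in miR-132 and miR-212, so neural markers were read beside them. Of 9 neural assays, 7 had no detection in any sample, among them the neuronal miR-124, miR-9, miR-128 and miR-137. That count is near the share over all assays, of which 563 of 750 (75.1%) had no detection, so it does not set the neural markers apart. The number detected per mouse was 0 to 1 after ischemia/reperfusion and 0 to 2 in sham. It was 0 in ischemia/reperfusion mice 1, 2 and 4, in which miR-212 was detected, and also 0 in sham mice 2 and 4. In each of these samples the neural miR-383 had a Ct over the limit, from 35.4 to 37.6. The part of neural cells in the miR-212 values was not tested. Leukocyte markers numbered 4 to 7 of 9 assays in ischemia/reperfusion mice and 4 to 8 in sham mice. Of their 4 tested assays 0 passed, with a median log2 difference of 0.43 beside -0.80 for all 72. The 4 include both the hsa and the mmu assay of miR-223, so this median counts that miRNA more than once. The smallest p in that list were those of the hsa-miR-223 assay (1.15 ± 1.13), miR-150 (-1.62 ± 2.00) and the mmu-miR-223 assay (0.63 ± 1.00; log2 difference ± SE, limma adjusted p from 0.605 to 0.714). The part of leukocytes in the miR-212 values was not tested. Of the erythroid markers miR-144, miR-451 and miR-486, 0 of 3 assays had a detection, too few to read against that share.

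The remaining lists were read in the same way. Endothelial and angiogenic miRNAs were detected in 12 to 13 of 25 assays per ischemia/reperfusion mouse and in 9 to 19 per sham mouse. Of their 10 tested assays, 0 passed, 8 had lower means, beside 49 of all 72 tested, and the median was -0.87, beside -0.80. The smallest p were those of miR-218 (-1.89 ± 0.66), miR-222 (-2.12 ± 0.74) and miR-126-3p (-1.59 ± 0.57), each with a limma adjusted p of 0.228 (log2 difference ± SE). Fibroblast and mesenchymal miRNAs were detected in 4 to 6 of 7 assays in ischemia/reperfusion mice and in 3 to 6 in sham mice, and 5 of 5 tested had lower means, again beside 49 of 72, with 0 passing. Their smallest p were those of miR-199a-3p (-2.65 ± 0.92), miR-21 (-2.99 ± 1.33) and the mmu-miR-214 assay (-3.95 ± 1.17; limma adjusted p from 0.228 to 0.362). The hsa-miR-214 assay, also among the 5, was at only -0.86 ± 0.87 (limma adjusted p = 0.605). Smooth muscle miRNAs numbered 1 to 2 of 3 assays in ischemia/reperfusion mice and 1 to 3 in sham mice, and miR-145, the 1 tested, was at -2.09 ± 0.84 (limma adjusted p = 0.278). Epithelial and kidney tubule miRNAs numbered 0 to 2 of 12 assays in ischemia/reperfusion mice and 0 to 4 in sham mice. Of the 12 assays, 4 passed the limit somewhere. miR-203 and miR-204 each did so in 2 ischemia/reperfusion and 3 sham mice. Only sham mice held the others, miR-194 (Ct 20.5 for mouse 3, Ct 23.7 for mouse 4) and miR-192 (Ct 29.8 for mouse 4). The miR-200 family (miR-200a, miR-200b and miR-200c) was not detected. In a sorted bulk sample, fewer cells of a type and less RNA per cell cannot be told apart.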

How the data were processed

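CD34+/CD105- cells were sorted from collagenase-digested renal artery, and RNA from a mirVana kit was assayed by real-time PCR on a 7900HT Fast instrument, per the labels' protocols. The deposited Ct and delta Ct values are scores in cycles, and the deposited fold change is a ratio that the authors made, per the file headers, by raising 2 to the sham mean of delta Ct less the experimental mean. Delta Ct equalled Ct minus 1 reference value per sample and card in every well with a Ct, within 7.11e-15 cycles. In 13 wells the deposited delta Ct had no matching Ct, none of them of a member, and these were treated as missing. Cards were taken from the 2 series of catalogue numbers (375 miRNA assays each). Neither the reference nor the threshold settings are stated in the sources used here.

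The 769 rows hold 757 assays, 7 of them controls. Repeated wells were averaged, and detection meant Ct below 35. All miRNAs detected in at least 3 mice of each group entered a two-sided comparison by limma (version 3.58.1, R version 4.3.3). It used plain eBayes moderation and Benjamini-Hochberg adjustment. The procedure was tried only on simulated data with planted changes larger than most measured ones and with gaps unrelated to level. That trial does not show how well smaller changes would be found here. Members' differences are group means with values not detected set to Ct 35. The within-sample difference was planned for a shared reference, but the assays lie on different cards, so it was also computed from Ct. miR-128a was matched as miR-128, and miR-424 had no assay by that name. miRNA genes within 5 Mb were matched by name or RefSeq synonym on GRCm38.p6. Each value comes from an unstated number of wells, so the spread between mice is the only measure of precision.

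The members and lists were chosen with earlier results of these data known. Besides the members, the text names up to 5 assays most like each, assays of the same hairpins, seed or neighbourhood, and up to 3 members of each list with the smallest limma p. Any other was named after its values were seen.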

Additional observations from a re-analysis of the deposited data

Results flagged for a closer look

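The Ct of miR-132 in sham mouse 4, 31.1, stood apart from the other 3 sham mice, which were placed at Ct 35 because they had no Ct. With 3 equal set values, the gap to the nearest sham mouse is the whole range of the group by construction. Chance gives such a mark to about 1 group of 4 in 20 when all values are measured. Against the deposited reference the same sample did not stand apart, because its reference was the lowest of the group.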

How the results depend on the processing

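Detection of miR-212 in 3 ischemia/reperfusion mice and of miR-132 in 1 sham mouse was the same with limits of Ct 32 and 38. The late sham well of miR-212 counted as detected at a limit of 38, giving 4 samples. The miR-212 log2 difference was positive under every alternative, from 3.26 to 8.04. Its sign is no support, since the pair was chosen for this pattern and, without normalization, all sham values are set at Ct 35. It was 7.91 with wells without a Ct left missing (3 against 1 wells) and 8.04 with Ct 40 in the undetected wells, and it lay between 3.60 and 5.47 when each mouse was left out. The miR-132 log2 difference was -0.97 without normalization and -0.83 with Ct 40, and between -0.24 and 0.91 when each mouse was left out. With wells without a Ct left missing it had no value, nor did the within-sample difference. The difference of miR-212 minus miR-132 was 8.87 with Ct 40, between 2.90 and 4.76 when each mouse was left out, and 4.23 without normalization, an alternative chosen after seeing the data. Of the miRNAs tested with limma, 1 of 95 passed at a limit of Ct 38. When undetected values were placed at Ct 35 and detection in 3 mice of either group sufficed, 1 of 114 passed, and these choices changed together. At an unadjusted p under 0.05 limma gave 4 of 49 at a limit of Ct 32, 15 of 95 at Ct 38 and 21 of those 114, against 10 of 72. When each mouse was left out, 0 to 1 passed, with 1 passing without sham mouse 1 and 1 without sham mouse 2. With mouse number as a replicate block the count was 0, and the standard error was 1.40 for miR-212 and 0.38 for miR-132. Same-numbered mice did not deviate together (r from -0.38 to 0.02 over 54 miRNAs), so the numbers were not taken as pairs. The median of the 72 tested miRNAs was -0.80 with the deposited reference, -0.24 with the mean of 54 miRNAs and -1.93 without normalization.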
